A study of Mus musculus with 2 samples.

Results

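The genes described here are 10 that build, load or control MHC class II, chosen by symbol among the 12584 genes of the count matrix, and all 10 were found. They are H2-Ab1, H2-Aa, H2-Eb1, Cd74, Ciita, H2-DMa, H2-DMb1, H2-DMb2, H2-Oa and H2-Ob. They were followed through 7815 CD45+ cells sorted from YUMM3.3 tumours, a mouse melanoma line grown in C57BL6 mice and collected on day 12. One library came from the NTT line and the other from the RTT line. The study's methods describe the RTT line as resistant to BRAF inhibition and kept on dabrafenib in culture. Each line was represented by 1 library, so the line, the mouse, the tumour and the library cannot be told apart, and no test between NTT and RTT was possible. Intervals in brackets are 95% intervals that cover counting error only. Brackets beside a median of the 10 log2 ratios are an exception. They hold the median of the 10 lower and the median of the 10 upper limits, and are not 95% intervals of the median.

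MHC class II molecules present peptides taken up from outside the cell to CD4 T cells and are a defining feature of dendritic cells, B cells and activated monocytes and macrophages. An alpha and a beta chain (H2-Aa with H2-Ab1) assemble on the invariant chain Cd74, which fills the groove until H2-DM (H2-DMa with an H2-DMb chain) exchanges its remnant for peptide. H2-DO (H2-Oa with H2-Ob) holds H2-DM back, and Ciita is the coactivator that switches the whole set on. C57BL mice lack a working H2-Ea gene, so H2-Eb1 is transcribed in them without its usual partner chain.

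Of the 10 genes, 8 lie within 224 kb of chromosome 17 (34092340 to 34316674, mm10, GENCODE positions), while Ciita is on chromosome 16 (10480059 to 10528418) and Cd74 lies apart from both. RefSeq gave promoter sequences for 7 members, and 250 bases before and 50 after each start were searched for the cores of the X and Y boxes, the class II promoter elements. The letters searched were ACNGATG for the X core, part of the box bound by RFX, and ATTGG for the Y core, an inverted CCAAT bound by NF-Y. On both strands the X core was in 9.85% and the Y core in 37.4% of all 32851 promoters of that length. An X core followed on the same strand by a Y core 10 to 40 bases on was in 77 promoters (0.234%), among them those of H2-Eb1, H2-DMb1 and H2-DMb2. In these the Y core began 29, 30 and 30 bases after the X core. The Y core was on the gene's own strand in 7 members and the X core in 4. The promoters below, of GRCm38.p6, place the Y core, with or without the X core, before chains that fell over all cells (H2-Eb1 and H2-Aa) and before DM and DO chains of dendritic cells. Cores on the gene's strand are in capitals, and bases inside an annotated exon are left out. The windows are chr17:34305717-34305866 (plus strand), chr17:34145099-34145235 (plus), chr17:34287824-34287973 (minus) and chr17:34238755-34238902 (plus), in the order printed.
H2-Eb1: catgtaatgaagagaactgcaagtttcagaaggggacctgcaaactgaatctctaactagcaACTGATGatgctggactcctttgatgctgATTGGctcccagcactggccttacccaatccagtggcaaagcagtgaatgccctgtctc
H2-DMb2: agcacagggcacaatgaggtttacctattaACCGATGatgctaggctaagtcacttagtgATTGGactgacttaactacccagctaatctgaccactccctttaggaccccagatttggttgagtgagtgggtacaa
H2-Aa: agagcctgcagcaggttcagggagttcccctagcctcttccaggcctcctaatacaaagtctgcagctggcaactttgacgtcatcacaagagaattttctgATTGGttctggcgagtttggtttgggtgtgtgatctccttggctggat
H2-Ob: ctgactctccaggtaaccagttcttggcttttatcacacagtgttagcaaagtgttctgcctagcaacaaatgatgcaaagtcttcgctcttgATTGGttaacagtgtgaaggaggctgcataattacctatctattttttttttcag
On the gene's strand, H2-Eb1 and H2-DMb2 showed the paired cores, and H2-Aa and H2-Ob the Y core alone. The searched sequence of H2-Aa also held 1 X core on the other strand. These matches describe the letters of the windows and say nothing of binding in these cells. A box with letters other than those searched would be missed, so a core not found does not mean that the box is absent.

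The libraries held 2975 NTT and 4840 RTT cells with medians of 5398 and 8336 UMIs per cell, and 7 cell barcodes occurred in both. The authors' labels divided the cells into 16 populations, of which 11 had at least 20 cells in each library and 8 at least 50. Class II genes were among the features behind some of these names (TAM_H2Ab1 is named for a member), so differences in level between populations are a description. The makeup of the tumours differed widely. Monocytes were 43.8% of NTT and 2.54% of RTT UMIs, macrophages 30.4% and 88.1%, and dendritic cells 16.03% and 7.28%.

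The 10 genes together made up 2.89% of all NTT UMIs and 1.49% of RTT UMIs. Levels are given in CPM, UMIs scaled to the same total in every sum, which in this 3′ assay counts 1 end of each transcript and needs no correction for length. H2-Ab1, the beta chain of I-A, stood at 13288 CPM in NTT cDC1, 12437 in NTT cDC2 and 11334 in NTT Monocyte_1. In the same library it was at 7958 CPM in TAM_H2Ab1, 6143 in Macro and 5471 in DC3, the mature dendritic cells. It was lower again in Infl_Mono (4742 CPM), TAM_cycling (4580 CPM), TAM_Spp1 (2654 CPM) and neutrophils (2171 CPM). The population labelled NK_cells, lymphocytes in which class II is expected to be low, had 215 CPM. It carried T cell markers (5 of 5 genes, 6227 CPM in NTT and 4494 in RTT, Cd3g at 2015 and 1435) as well as NK markers (4 of 4 genes, 4552 and 2498 CPM, with Ncr1 at 82.1 and 32.5), so it is called here by its label only. Of the 10 steps between neighbours in this order, Infl_Mono to TAM_cycling was the 1 within counting error.

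In the RTT library the same 3 populations led, and the middle of the order differed. H2-Ab1 was at 19906 CPM in cDC2, 14044 in cDC1, 11264 in Monocyte_1 and 10398 in Macro. TAM_Spp1 came next at 8724 CPM, ahead of TAM_H2Ab1 at 8045 and DC3 at 4803. TAM_cycling had 2440 CPM and Infl_Mono 1686, and the 2001 TAM_C1q cells had 1155 CPM. Ctsk_Macro, the osteoclast-like macrophages found in RTT alone, had 574 CPM. RTT NK_cells had 282 CPM, and 89.0 without 1 cell that held 72 of the 104 UMIs. H2-Aa, the alpha chain of I-A, kept close to H2-Ab1, with 1.00 to 1.36 H2-Aa UMIs per H2-Ab1 UMI in NTT populations other than DC3. In DC3 the figure was 2.14 in NTT and 1.81 in RTT.

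Ciita, the master coactivator, was measured at much lower levels than the genes it controls. It was at 339 CPM in NTT cDC1, 312 in NTT cDC2, 185 in NTT Monocyte_1 and 136 in NTT DC3. Within NTT macrophages it ranged from 49.0 CPM in TAM_cycling to 72.0 in Macro, and most neighbours in its order (7 of 10 steps) could not be separated by counting error. NTT neutrophils had 57.4 CPM of Ciita and 2222 CPM of H2-Aa, well above the 3.01 and 251 CPM of NTT NK_cells. The class II UMIs of these neutrophils came from a minority of cells, since 17.05% (9.87 to 26.6) of them reached the level described below as chain-rich.

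**Figure D1:**
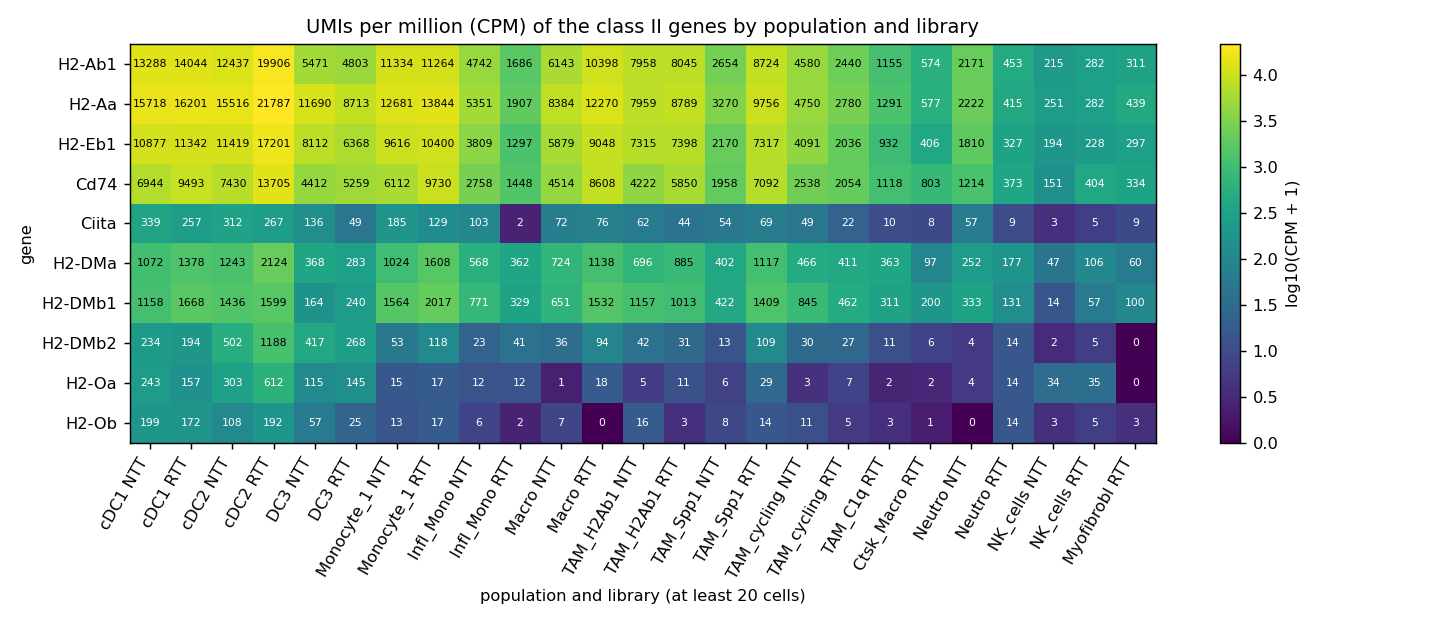
Levels of the 10 class II genes (rows) in each population and library with at least 20 cells (columns), printed in CPM and coloured by log10(CPM + 1). The classical chains and Cd74 were highest in cDC1, cDC2 and Monocyte_1, while H2-DMb2, H2-Oa and H2-Ob were high mainly in the dendritic columns.

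Single cells showed that most populations were mixtures of cells with many and with few class II UMIs. Each cell was thinned to 2000 UMIs, and the UMIs of H2-Aa, H2-Ab1 and H2-Eb1 were summed. The median cell had 39 such UMIs in NTT and 1 in RTT, and 9.48% of NTT and 35.5% of RTT cells had none. Cells with at least 20 of the 2000 UMIs (1%) from these chains are called chain-rich here, a cut in a continuous score that was set after the values were seen. By that cut 59.6% (57.8 to 61.4) of NTT and 31.8% (30.4 to 33.1) of RTT cells were chain-rich, with 10.8% and 7.997% of cells lying within 50% of the cut. These cells carried 96.6% of the chain UMIs in NTT and 95.1% in RTT.

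Over all cells, the share of chain-rich cells differed between libraries more than their content did. Among chain-rich cells of all kinds the mean was 74.1 ± 32.1 UMIs in NTT and 80.8 ± 40.7 in RTT (SD over 1710 and 1517 cells of 1 library each). In TAM_Spp1 the chain-rich share was 23.6% (17.7 to 30.2) in NTT and 60.3% (56.6 to 64.0) in RTT. In Infl_Mono it was 38.3% (34.4 to 42.3) in NTT and 16.3% (9.42 to 25.5) in RTT. TAM_cycling went the same way as Infl_Mono, from 47.6% (37.6 to 57.6) to 23.7% (21.0 to 26.5). At cuts of 10 and of 40 UMIs these 3 populations kept the same direction, TAM_Spp1 with 31.9% and 65.9% at the lower cut and 15.7% and 50.4% at the higher. In cDC1 100% of cells were chain-rich in both libraries (78 and 54 cells), and in TAM_C1q 12.0% (10.6 to 13.5) were.

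**Figure D2:**
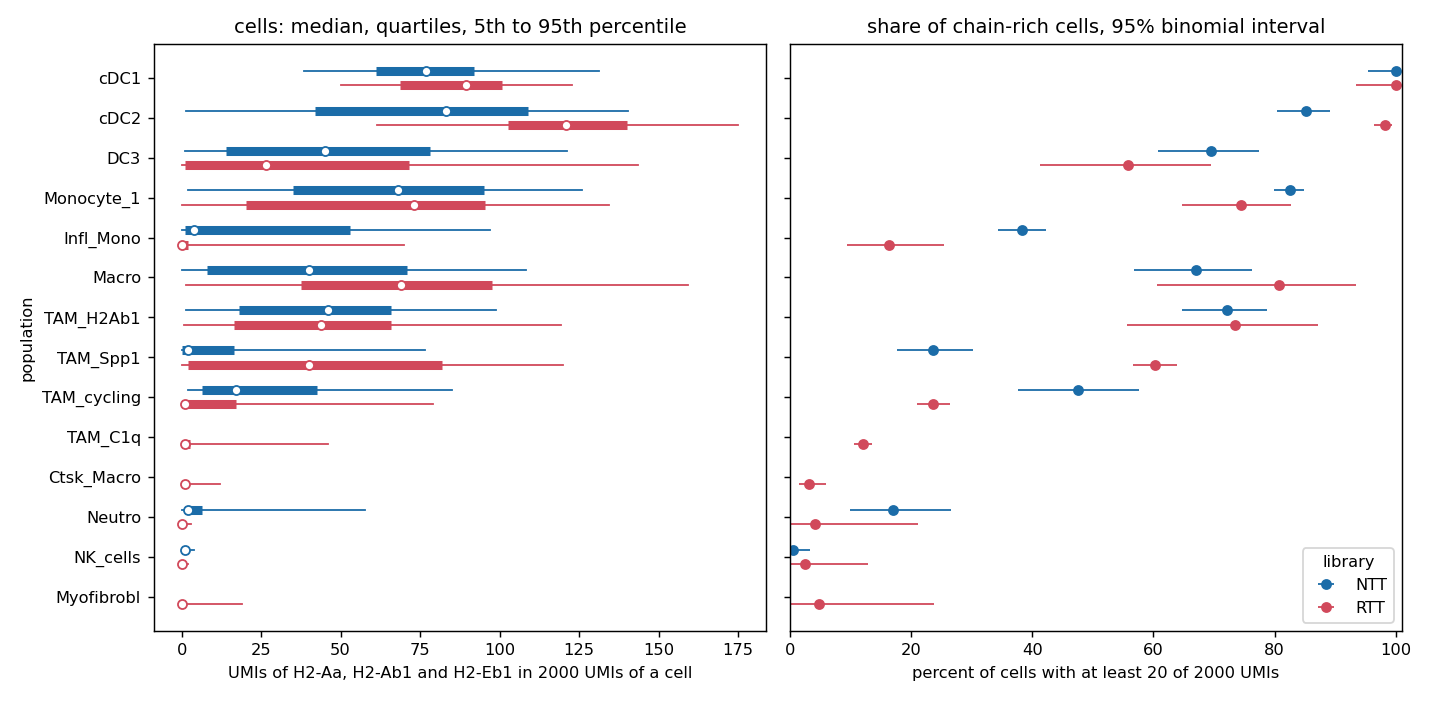
Left, UMIs of H2-Aa, H2-Ab1 and H2-Eb1 in 2000 UMIs of a cell, with the median (circle), quartiles (thick bar) and 5th to 95th percentile (thin line) of the cells of each population and library. Right, the percent of cells with at least 20 such UMIs and its 95% binomial interval, where TAM_Spp1 lies to the right in RTT (60.3% against 23.6%) and Infl_Mono and TAM_cycling to the left.

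Over all cells, the comparison of NTT with RTT tumours asks how much class II message the immune infiltrate as a whole carried. A gene is called past 2-fold where its log2 ratio of RTT over NTT CPM is at least 1 or at most -1 and the interval excludes 0. The 3 classical chains and Ciita fell past 2-fold. H2-Aa was at 8629 CPM in NTT and 4056 in RTT (log2 -1.09, -1.10 to -1.08) and H2-Eb1, the beta chain of I-E, at 6568 and 3055 (-1.10, -1.12 to -1.09). H2-Ab1 was at 7424 and 3606 CPM. Ciita went furthest, from 131 to 37.9 CPM (log2 -1.79, -1.88 to -1.70). So 4 of 10 members were called lower and 0 higher, beside 9.6% and 8.18% of the 8220 genes with at least 500 UMIs, a minimum that all 10 members passed, and 14.5% and 9.17% of genes with at least 1 UMI in each library.

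The other members differed less. H2-DMb1, a beta chain of H2-DM, had a log2 ratio of -0.82 (994 and 561 CPM), H2-Ob one of -0.64 (26.7 and 17.1 CPM) and Cd74 one of -0.54 (4225 and 2910 CPM). H2-DMa stood at -0.38, H2-Oa at -0.15 and H2-DMb2 at 0.01. The median of the 10 log2 ratios was -0.73 (-0.83 to -0.66), and that of all genes was 0.10. These sums weigh each cell by its UMIs. With each cell weighed equally, as the mean of per-cell CPM, the chains were no longer past 2-fold (H2-Aa -0.79, H2-Eb1 -0.76, H2-Ab1 -0.73), Ciita still was (-1.66), and H2-Oa changed sign to 0.41.

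**Figure D3:**
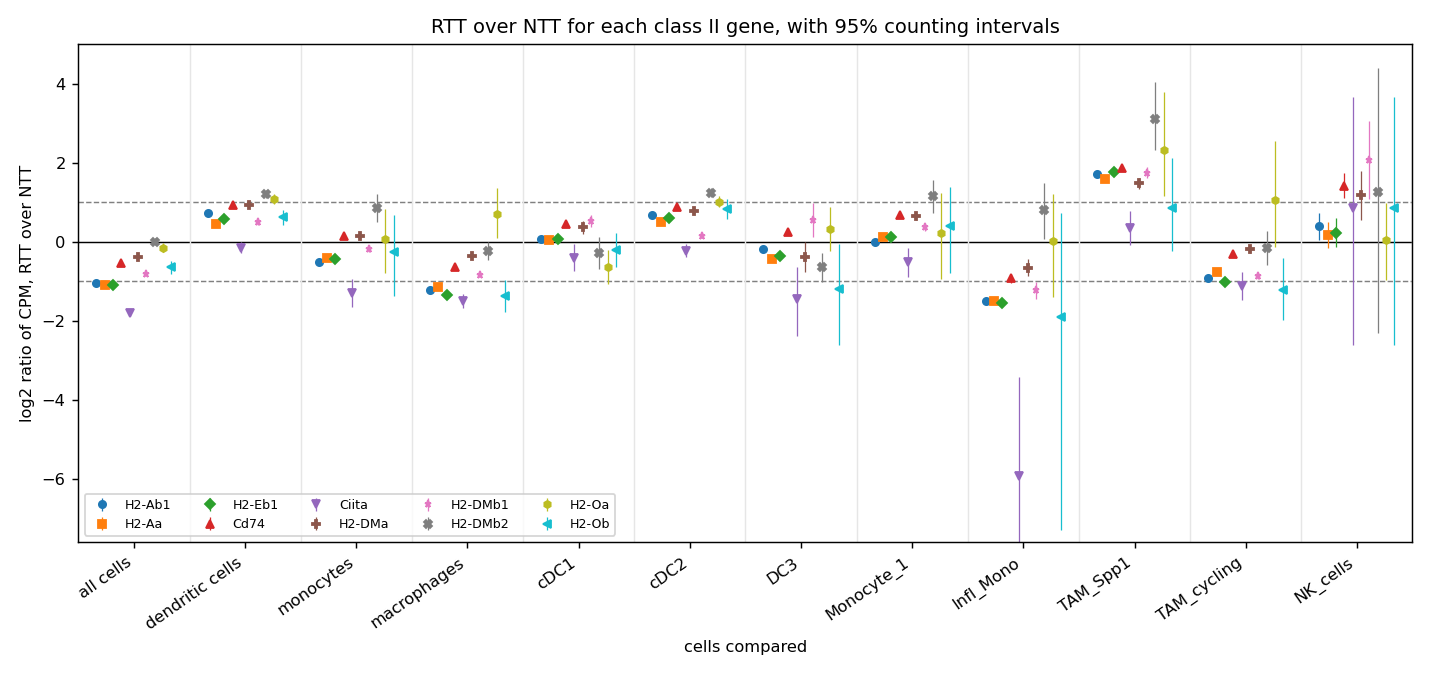
The log2 ratio of CPM in RTT over NTT (vertical axis) for each of the 10 genes (symbols) in all cells, 3 classes and 8 populations, with 95% counting intervals and dashed lines at 2-fold, where the lower end for Ciita in Infl_Mono runs off the axis. All genes lie above 0 in TAM_Spp1, and Ciita is the lowest or among the lowest in most columns.

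How much of the difference came from the makeup of the infiltrate was calculated by splitting it into a part from each population's share of UMIs and a part from its level. Some populations were named partly by class II genes, so a difference in these genes can enter the shares by way of the labels. For the 3 chains summed (22621 CPM in NTT and 10716 in RTT) the shares accounted for -12148 CPM and the levels for 243 CPM. The part from levels is a net of populations that differed in opposite directions, as H2-Ab1 had a log2 ratio of 1.72 in TAM_Spp1 and -1.49 in Infl_Mono. For Cd74 the shares gave -2533 CPM and the levels 1218 CPM the other way, and for H2-DMa -328 and 163 CPM. H2-DMb2 had -63.4 CPM from shares and 63.8 from levels, which cancelled, and H2-Oa -29.9 and 25.1. With mean weights Ciita was the 1 gene of the 10 for which both parts were negative, -47.8 CPM from shares and -45.6 from levels. Ctsk_Macro had no NTT cell and was given its RTT level in both libraries, and the NTT level of TAM_C1q rests on 17 cells. With the levels of NTT or of RTT as weights in place of their mean, the part from shares for the summed chains was 93.2% or 111% of the difference. With NTT weights the part from levels was negative for H2-Ab1 (-110 CPM), H2-Aa (-489 CPM) and H2-Eb1 (-212 CPM) too, while that of Ciita stayed between -47.0 and -44.1 CPM.

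**Figure D4:**
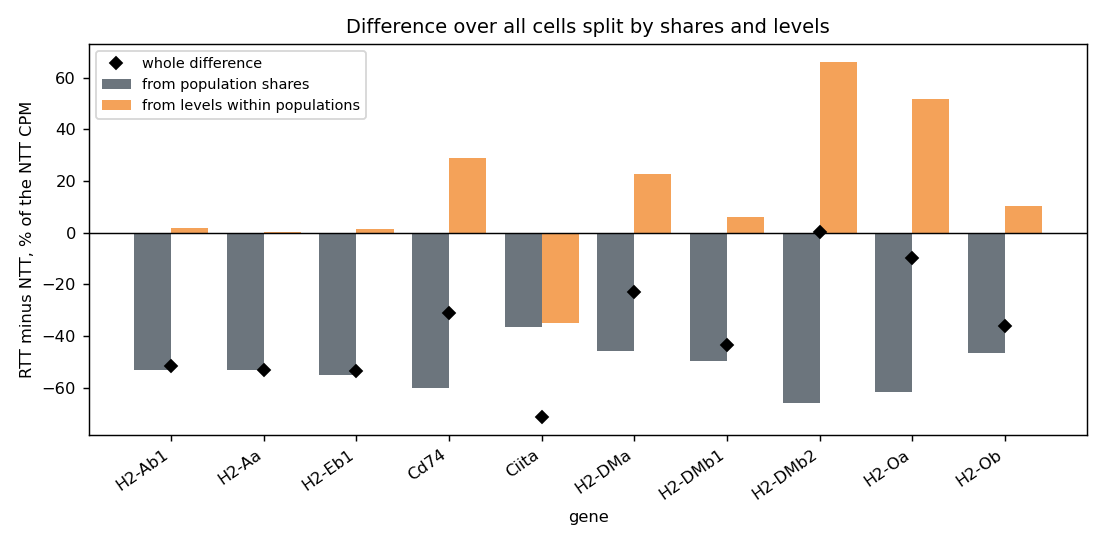
The RTT minus NTT difference over all cells for each gene, as a percent of its NTT CPM (diamonds), split into the part from population shares (grey bars) and the part from levels within populations (orange bars). With the mean weights drawn here, both bars are below 0 for Ciita and the orange bar is above 0 for the other 9 genes. With NTT weights the part from levels is below 0 for the 3 chains as well.

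Within macrophages, the largest class of the RTT library, 5 members fell past 2-fold and 0 rose, beside 5.26% and 3.69% of the 7364 genes with at least 500 UMIs, a minimum passed by 8 members, and 8.94% and 4.9% of genes with at least 1 UMI in each library. Ciita had a log2 ratio of -1.5 (58.2 and 20.6 CPM), H2-Ob of -1.38, H2-Eb1 of -1.34, H2-Ab1 of -1.21 and H2-Aa of -1.15. The median of the members was -0.99 and that of all genes 0.07. This class result rested on populations that the libraries did not share. Without TAM_C1q and Ctsk_Macro, which held 17 and 0 NTT cells, 0 members were past 2-fold lower, 1 was higher and the median was -0.31. Ciita was then at -0.70 and the chains between -0.54 (H2-Eb1) and -0.36 (H2-Aa).

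TAM_Spp1, with 193 NTT and 719 RTT cells, had more members past 2-fold higher than the other 7 populations compared. There it was 8 higher and 0 lower in RTT, beside 10.8% of genes in either direction (11.1% higher and 12.9% lower among genes with at least 1 UMI in each library), and the median log2 ratio was 1.73 (1.56 to 1.85). H2-Ab1 stood at 2654 and 8724 CPM, H2-Aa at 3270 and 9756 CPM and H2-Eb1 at 2170 and 7317 CPM, log2 ratios of 1.72, 1.58 and 1.75. Cd74 went from 1958 to 7092 CPM (1.86) and H2-DMb1 from 422 to 1409 CPM (1.74). H2-DMa had 402 and 1117 CPM (1.48). H2-DMb2 rested on 13 NTT and 475 RTT UMIs (3.11, 2.32 to 4.03) and H2-Oa on 6 NTT UMIs, 4 of them in 1 cell (2.32, 1.16 to 3.79). Ciita had 54.5 and 68.8 CPM, a log2 ratio of 0.34 (-0.08 to 0.78) that counting error did not separate from 0. The identity markers of TAM_Spp1 moved too, since the monocyte list (4 of 5 genes in the matrix) summed to 6711 CPM in NTT and 2288 in RTT, the macrophage list (6 of 6) to 8949 and 21252 and the cDC2 list (5 of 5) to 476 and 1083. In the cDC2 list Mgl2 went from 19.4 to 537 CPM, Itgax from 72.0 to 136, Cd209a from 12.6 to 56.4 and Clec10a from 27.2 to 36.2. Sirpa was lower in RTT (344 and 317 CPM). Their part in the class II difference was not tested. Leaving out the 6 NTT and 54 RTT cells with a UMI of the dendritic markers Flt3, Zbtb46 or Cd209a, an alternative added after seeing the data, left H2-Ab1 at 1.68.

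In TAM_cycling the members past 2-fold were lower. H2-Eb1 went from 4091 to 2036 CPM (log2 -1.01, -1.04 to -0.97), Ciita from 49.0 to 22.5 CPM (-1.12) and H2-Ob from 10.5 to 4.51 CPM (-1.22), so 3 members were lower past 2-fold and 0 higher, beside 4.19% in each direction (6.64% and 4.88% with at least 1 UMI in each library). Without the cell with most UMIs of the gene in each library, an alternative added after seeing the data, H2-Eb1 was at -0.97 and no longer past 2-fold. H2-Ab1 and H2-Aa were at -0.91 and -0.77. In NTT TAM_cycling the plasma cell gene Igkc was at 2037 CPM against 0 in RTT, and there were 140 CPM of the B cell list (4 of 7 genes in the matrix) against 21.7. Of that list without Cd79b and Ly6d, a UMI was found in 4 of 103 NTT and 3 of 947 RTT cells (3.88% and 0.317%). Leaving out every cell with a UMI of the full B cell list removed 54 of 103 NTT and 184 of 947 RTT cells (52.4% and 19.4%). This left fewer than 50 NTT cells, and gave H2-Ab1 -1.18, H2-Aa -1.02 and Ciita -0.87. Ciita was then no longer past 2-fold, while H2-Ab1 and H2-Aa were. The part of these cells in the difference was not tested beyond that. TAM_H2Ab1 and Macro had fewer than 50 RTT cells and were given no ratio. In TAM_H2Ab1 the level of H2-Ab1 was 7958 CPM in NTT and 8045 in RTT, and in Macro 6143 and 10398.

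Within monocytes (1615 NTT and 199 RTT cells), 1 member was past 2-fold lower and 0 higher, beside 6.28% and 2.56% of 3009 genes with at least 500 UMIs, a minimum passed by 7 members, and 5.52% and 5.73% of genes with at least 1 UMI in each library. It was Ciita, at 155 CPM in NTT and 63.5 in RTT (log2 -1.29, -1.65 to -0.94). The class joined populations that differed. In Monocyte_1 the classical chains were level, with H2-Ab1 at 11334 and 11264 CPM (-0.01, -0.05 to 0.03) and H2-Aa at 12681 and 13844 CPM (0.13). Cd74 and H2-DMa were higher there by 0.67 and 0.65, short of 2-fold. H2-DMb2 was the 1 member past 2-fold higher (53.2 and 118 CPM, log2 1.15), with 19 of its 62 RTT UMIs in 1 cell, and without the cell richest in it in each library it was at 0.67 and no longer past 2-fold. The count of 1 higher stands beside 1.8% of genes, and that of 0 lower beside 8.97% (4.16% and 6.82% with at least 1 UMI in each library).

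In Infl_Mono the median of the 10 log2 ratios was -1.36 (-1.51 to -0.92), and -0.89 without the 5% deepest cells. H2-Ab1 went from 4742 to 1686 CPM (-1.49), H2-Aa from 5351 to 1907 (-1.49), H2-Eb1 from 3809 to 1297 (-1.55) and H2-DMb1 from 771 to 329 (-1.23). Ciita had 323 UMIs in the 620 NTT cells and 1 UMI in the 94 RTT cells, a log2 ratio of -5.92 (-11.23 to -3.43). After thinning, 15.9% (13.0 to 19.1) of NTT cells had a Ciita UMI and 0 of 92 RTT cells did, which allows a share of up to 3.26%, a limit on cells with a UMI and not on cells expressing the gene, beside 1.22% of NTT and 2.44% of RTT NK_cells. In all, 5 members were lower and 0 higher, beside 9.55% and 4.81% of genes (6.08% and 9.49% with at least 1 UMI in each library). Cd74 was at -0.93 and H2-DMa at -0.65. Monocyte markers moved with these values, the monocyte list summing to 11320 CPM in NTT and 3714 in RTT and the macrophage list to 8995 and 32053 CPM. Their part was not tested. The Ciita level within the chain-rich cells alone was 183 CPM (160 to 209) in NTT and 9.08 CPM (0.23 to 50.6) in the 15 such RTT cells, where H2-Aa was at 12953 and 9413 CPM.

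Dendritic cells taken as 1 class carried more class II message in the RTT library, but their populations differed. The median log2 ratio was 0.73 in cDC2, 0.05 in cDC1 and -0.36 in DC3. The makeup of the class differed too, with 279 NTT and 413 RTT cells in cDC2 and 135 and 57 in DC3. The part of that makeup in the class values was not tested. Across cDC1, cDC2 and DC3 together, 9 of 10 members had intervals above 0, and the median log2 ratio was 0.67 (0.62 to 0.77) against 0.08 over all genes. Past 2-fold were H2-DMb2, the other beta chain of H2-DM (425 and 982 CPM, log2 1.21), and H2-Oa, the alpha chain of H2-DO (244 and 514 CPM, 1.08). That made 2 members higher and 0 lower, beside 3.76% and 7.85% of the 2179 genes with at least 500 UMIs, a minimum that all 10 members passed, and 7.79% and 8.39% of genes with at least 1 UMI in each library. Cd74 (0.92), H2-DMa (0.92) and H2-Ab1 (0.72) lay short of 2-fold. Ciita was the 1 member below 0, at 273 and 247 CPM (-0.15, -0.29 to -0.01). Without DC3, H2-Oa was at 0.94 and no longer past 2-fold.

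cDC2, the type 2 conventional dendritic cells, had the highest median of the 3 dendritic populations, 0.73 (0.62 to 0.77). In cDC2 H2-DMb2 stood at 502 CPM in NTT and 1188 in RTT (log2 1.24, 1.13 to 1.35) and H2-Oa at 303 and 612 CPM (1.01, 0.87 to 1.16), again 2 higher and 0 lower beside 3.76% and 6.45% of genes (7.4% and 7.82% with at least 1 UMI in each library). Cd74 went from 7430 to 13705 CPM (0.88), H2-Ab1 from 12437 to 19906 (0.68) and H2-Aa from 15516 to 21787 (0.49). The chain-rich share was 85.2% (80.4 to 89.2) in NTT and 98.3% (96.5 to 99.3) in RTT, and the mean of the chain-rich cells 89.9 ± 35.2 and 122.5 ± 32.2 UMIs (SD over 230 and 397 cells). Plasmacytoid markers were in the NTT cDC2 library, with Siglech at 233 CPM against 43.8 in RTT and Ccr9 at 115 against 31.3. The 3 genes of that list summed to 1468 and 401 CPM, most of it Bst2 (1120 and 326). Bst2 was also at 1025 CPM in NTT and 1039 in RTT Infl_Mono. In 14.3% of NTT and 3.63% of RTT cDC2 a UMI of Siglech or Ccr9 was found. Without these cells, an alternative added after seeing the data, H2-DMb2 was at 1.11, Cd74 at 0.78, H2-Ab1 at 0.56 and H2-Oa at 0.95, so that H2-Oa was no longer past 2-fold. Without the 35 NTT and 15 RTT cells with a UMI of the B cell list, H2-Oa was at 0.98. Of that list without Cd79b and Ly6d, a UMI was found in 1 NTT and 0 RTT cells. Other markers moved as well. The monocyte list (4 of 5 genes) summed to 4939 CPM in NTT and 721 in RTT, most of it Plac8 (4369 and 274). The macrophage list (6 of 6) summed to 741 and 1456 CPM. Of the cDC2 list, Mgl2 was at 341 and 2382 CPM, Cd209a at 762 and 1166 and Itgax at 257 and 346. Clec10a (466 and 371 CPM) and Sirpa (240 and 181) were lower in RTT. Their part was not tested.

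cDC1 had 78 and 56 cells and differed little. 0 members were past 2-fold in either direction, beside 5.38% of genes lower and 0.949% higher (4.88% and 4.08% with at least 1 UMI in each library), and the median log2 ratio was 0.05 (0.00 to 0.13). H2-Ab1 was at 13288 and 14044 CPM (0.08), while H2-DMb1 (0.53) and Cd74 (0.45) were higher and H2-Oa (-0.63) and Ciita (-0.40) lower with intervals apart from 0. In DC3, whose Ccr7-type programme marks dendritic cells that have matured, Ciita fell from 136 to 49.4 CPM (-1.46, -2.38 to -0.65) and H2-Ob from 57.1 to 24.7 CPM (-1.21, -2.60 to -0.05), 2 lower and 0 higher beside 4.72% and 2.83% of genes (3.63% and 6.35% with at least 1 UMI in each library). The RTT values of these genes rest on 14 and 7 UMIs. RTT DC3 also held more macrophage RNA, 5001 CPM of the macrophage list against 851 in NTT, and its part was not tested.

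The proportion of Cd74 to H2-Aa varied less between populations than the level of either gene did. That was not so of every proportion, as H2-Oa per 1000 H2-Aa UMIs ran from 0.172 to 135 in NTT. Cd74 was counted at 0.530 UMIs per H2-Aa UMI in the median NTT population (range 0.377 to 0.604) and at 0.703 in the median RTT population (0.586 to 1.43), over the 11 populations with at least 20 cells in each library. It was higher in RTT in 11 of the 11, with intervals apart in all 11. In cDC1 the values were 0.442 and 0.586, in Monocyte_1 0.482 and 0.703 and in TAM_H2Ab1 0.530 and 0.666. Chain-rich cells alone gave 0.476 (0.472 to 0.480) over all NTT cells and 0.673 (0.668 to 0.678) over all RTT cells, so the shift was there when cells with few class II UMIs were left out. In NK_cells and in neutrophils, each with 1 chain-rich RTT cell, the chain-rich intervals of the libraries overlapped. With 1 library of each line, the library and the tumour cannot be told apart as the source of the shift. Cd74 is on chromosome 18 (60803848 to 60812652, mm10) and contains Mir5107.

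Ciita went the other way against its targets. Per H2-Aa UMI it was lower in RTT in 10 of 11 populations, with intervals apart in 4. The median was 14.6 Ciita UMIs per 1000 H2-Aa UMIs in NTT and 8.09 in RTT over the same 11 populations. In cDC2 chain-rich cells Ciita was at 332 CPM (303 to 362) in NTT and 269 CPM (249 to 290) in RTT, while H2-Aa was at 17292 and 22066 CPM. In chain-rich macrophages, taken as a class, the Ciita intervals overlapped. They were 88.3 CPM (78.3 to 99.2) in NTT and 74.9 CPM (69.2 to 81.0) in RTT. H2-DMa per H2-Aa UMI was higher in RTT in 10 of 11 populations, with intervals apart in 7.

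**Figure D5:**
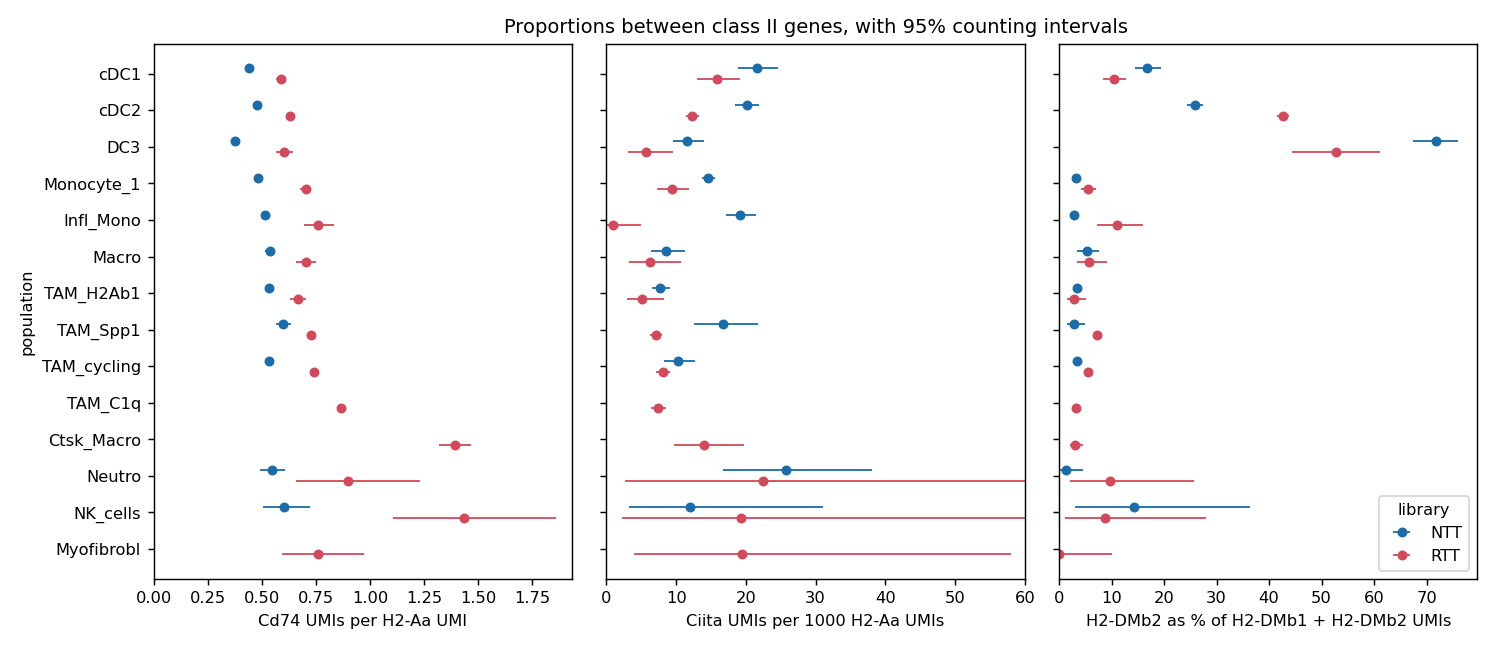
Cd74 UMIs per H2-Aa UMI (left), Ciita UMIs per 1000 H2-Aa UMIs (middle, axis ended at 60) and H2-DMb2 as a percent of H2-DMb1 plus H2-DMb2 UMIs (right) by population and library, with 95% counting intervals. Cd74 per H2-Aa lies to the right in RTT in each of the 11 populations with both libraries, and H2-DMb2 takes its highest shares in DC3 and cDC2.

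H2-DM is made with either of 2 beta chains, and the data separated them by cell type. H2-DMb1 was at 1564 CPM in NTT Monocyte_1, 1436 in cDC2 and 1158 in cDC1, and was low in DC3 at 164 CPM. H2-DMb2 was at 53.2 CPM in NTT Monocyte_1, 502 in cDC2, 234 in cDC1 and 417 in DC3. As a share of both, H2-DMb2 was 71.8% (67.5 to 75.9) in NTT DC3 and 52.8% (44.3 to 61.1) in RTT DC3. In cDC2 it was 25.9% (24.4 to 27.4) in NTT and 42.6% (41.5 to 43.8) in RTT, and in cDC1 16.8% and 10.4%. Monocyte_1 had 3.29% and 5.53%, and TAM_Spp1 2.91% (1.56 to 4.92) and 7.18% (6.57 to 7.82). The genes are neighbouring copies of similar sequence (34143307 to 34151555 and 34153072 to 34160230), so the split of reads between them is uncertain. The measured share ran from 1.31% in NTT neutrophils to 71.8%, and how much of it came from shared reads was not tested.

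H2-DO, the brake on H2-DM, was largely a dendritic cell product. Of the H2-Oa UMIs, 80.3% in NTT and 85.3% in RTT were in dendritic cells, as were 68.5% and 74.6% of the H2-Ob UMIs, against 23.5% and 36.0% of those of H2-Ab1. H2-Ob was highest in NTT cDC1 (199 CPM) and, in RTT, in cDC2 and cDC1 (192 and 172 CPM), which counting error did not separate. H2-Oa was highest in cDC2 in both libraries. It was also present in NK_cells, at 33.9 CPM in NTT, above Monocyte_1 (14.6 CPM). In RTT the 2 populations had 35.3 and 17.1 CPM on 13 and 9 UMIs, which counting error did not separate. Of the 13 UMIs of RTT NK_cells, 5 were in 1 cell. In NK_cells it was found in 29 of 178 NTT cells and 8 of 51 RTT cells, and in NTT there were 135 H2-Oa UMIs per 1000 H2-Aa UMIs. NTT neutrophils, with 2222 CPM of H2-Aa, had 2 UMIs of H2-Oa. That was 1.99 H2-Oa UMIs per 1000 H2-Aa UMIs. NK_cells had 3.01 CPM of H2-Ob in NTT and 5.42 in RTT. H2-Oa overlaps the antisense gene BC051537, and reads of the pair cannot be told apart without the strand used in counting.

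Other members have the same limit, as GENCODE places Gm20513 antisense to H2-Eb1, Dexi on the opposite strand in overlap with Ciita and Brd2 likewise with H2-DMa. In NK_cells 3 members had ratios past 2-fold higher (H2-DMb1 2.07, Cd74 1.42, H2-DMa 1.18) and 0 lower, beside 1.56% and 4.33% of genes (4.56% and 6.22% with at least 1 UMI in each library), but 0 members reached 500 UMIs there. One RTT cell of the 51 held 18 of the 21 H2-DMb1 UMIs and 80 of the 104 H2-Aa UMIs. Without the cell richest in the chains of each library, H2-DMb1 was at -0.44, H2-Aa at -1.64 and Cd74 at 0.47. H2-DMa was at 0.90 without the cell with most of its UMIs in each library, so each of the 3 calls was lost without 1 cell. The macrophage list (6 of 6 genes) summed to 360 CPM in NTT and 3192 in RTT NK_cells, and its part was not tested.

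Of 36 further genes of class II transcription, processing and turnover, 32 were in the matrix. Over all cells 9 of them were past 2-fold lower and 1 higher in RTT. That stands beside 9.6% and 8.18% of the 8220 genes with at least 500 UMIs. It was 14.5% and 9.17% of genes with at least 1 UMI in each library. Some genes of the list, Rfx5 and H2-Eb2 among them, had fewer than 500 UMIs. Within macrophages the counts were 6 and 0 (beside 5.26% and 3.69%, and 8.94% and 4.9% with at least 1 UMI in each library). Within monocytes they were 2 and 0 (beside 6.28% and 2.56%, and 5.52% and 5.73%), the lower count being near the background. Within dendritic cells they were 7 and 1 (beside 7.85% and 3.76%, and 8.39% and 7.79%). The medians of the list were -0.22, -0.18, -0.13 and -0.10, against 0.10, 0.07, -0.02 and 0.08 over all genes. The list was drawn up with results of these data known, and its counts describe it only.

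Among the 11 transcription factors, 4 were past 2-fold lower over all cells and 0 higher. Irf1, an interferon-induced factor that acts at the Ciita promoter, was past 2-fold lower in all 4 comparisons, with -2.30 over all cells, -1.67 in macrophages, -1.66 in dendritic cells and -1.04 in monocytes. Irf8 had -1.07 over all cells. Rfx5, a subunit of the X box complex, had -1.16 over all cells and -1.05 in dendritic cells, on 226 and 231 and on 68 and 34 UMIs. The other subunits, Rfxap (0.57) and Rfxank (-0.20), the NF-Y genes (-0.31 to 0.07) and Spi1 (0.02), the factor of the myeloid lineage, were not past 2-fold over all cells.

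In TAM_Spp1 Irf1 and the class II genes parted. Irf1 stood at 164 CPM in NTT and 38.8 in RTT (log2 -2.08), while the chains rose as described. In cDC2 Irf1 was at -2.11 beside H2-Ab1 at 0.68. In Infl_Mono Irf1 was at -1.45 beside H2-Ab1 at -1.49. Of the interferon-gamma receptor and its loop, Jak2 fell over all cells (-2.004), in macrophages (-1.51) and in monocytes (-1.37), and Socs1, the feedback inhibitor, over all cells (-2.65), in macrophages (-1.96) and in dendritic cells (-1.11). Ifngr1 (-0.01), Ifngr2 (0.53) and Jak1 (-0.25) were within 2-fold over all cells.

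Ctss, the cathepsin that trims the invariant chain in dendritic cells and macrophages, had 104152 and 189568 UMIs and a log2 ratio of -0.32 over all cells. Ctsb (0.73) and Ifi30 (0.41), the lysosomal thiol reductase, were also among those with the most UMIs. Ctsd, an aspartic protease, was the 1 gene past 2-fold higher over all cells (1.44) and in dendritic cells (1.20), and Sppl2a, the protease that clears the last invariant chain fragment from the membrane, fell over all cells (-1.10). Psap fell in macrophages (-1.01) and Lgmn in dendritic cells (-1.17). In TAM_Spp1, where the chains rose, Ifi30 (1.19) was the 1 processing gene of 10 past 2-fold higher, and 2 were past 2-fold lower. That stands beside 10.8% of genes in either direction (11.1% higher and 12.9% lower with at least 1 UMI in each library). In Infl_Mono, where the chains fell, 4 of the 10 were higher and 0 lower, beside 4.81% and 9.55% of genes (9.49% and 6.08% with at least 1 UMI in each library). The 4 were Ctsd (1.44), Ctsz (1.12), Ctsl (1.09) and Lgmn (1.05).

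Of the genes for surface turnover, Cd83, which keeps class II at the surface by opposing the ligase March1, fell over all cells (-1.06) and in dendritic cells (-1.01). March1 itself was at -0.88 over all cells and -0.10 in dendritic cells, and Mgat1 at -0.19. H2-Eb2, a second I-E beta chain, was a gene of DC3, with 202 CPM in NTT DC3 and 98.9 in RTT DC3 and at most 11.7 CPM elsewhere. Over all cells it had 192 and 70 UMIs (log2 -2.64).

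Across 21 sums of a population in 1 library, each of at least 50 cells, the level of every gene was compared with the mean log2(CPM + 1) of H2-Aa, H2-Ab1, H2-Eb1 and Cd74. Of the 8220 genes, H2-DMa came closest (Pearson's r = 0.934), followed by Prcp (0.897), Ciita (0.894), Mapk13 (0.880), H2-DMb1 (0.874), Bex6 (0.869), Irf5 (0.866), H2-DMb2 (0.857), Rnase6 (0.846) and Rp2 (0.846). H2-Ob was at rank 40 (0.741) and H2-Oa at rank 443 (0.443). Irf1 had r = 0.145. The sums share libraries and their depth and the populations were partly named by these genes, so the coefficients are a description, and with ranks in place of log values 3 of the 10 genes recurred.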

How the data were processed

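Single-cell RNA sequencing was performed on CD45+ cells of NTT and RTT tumours, with 1 library of each line. UMI counts were made by the authors with Cell Ranger 6.1.1 on mm10, and the deposited count matrix had been filtered by them for genes per cell, for mitochondrial and ribosomal reads and for genes found across their experiments, which included a probe-based assay. The strand setting of the counting and any removal of doublets are not given in the sources used here. Population names are the authors' labels, and no column of another sample was present (0 unused).

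Counts were summed over the cells of a population and library and scaled to CPM. Log2 ratios carry exact binomial intervals, levels exact Poisson intervals and shares Clopper-Pearson intervals, all at 95% and for counting error only. A ratio needed 50 cells in each library and a level 20 cells. Shares were taken after each cell was thinned to 2000 UMIs, and a count of 0 allows up to 3 UMIs or cells. No doublet caller was run, and 1 alternative left out the 5% deepest cells. Scaling by TMM (edgeR 4.0.16) and by size factors (DESeq2 1.42.0, R 4.3.3) were alternatives, and no count model was fitted. Python 3.11.15, numpy 2.4.6, scipy 1.17.1, pandas 2.3.3 and matplotlib 3.10.9 were used, and the interval code was tested on simulated data.

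The genes named are the 10 members, the pathway genes past 2-fold with those of most UMIs, and the 10 genes most like the classical chains and Cd74. The members, the lists and the cut for chain-rich cells were chosen with earlier results of these data known. Positions are from GENCODE and promoters from RefSeq (GRCm38.p6). H2-Ab1, Cd74 and Ciita had no promoter entry. One gene of the pathway list is counted with its group but not reported here by value.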

Additional observations from a re-analysis of the deposited data

Results flagged for a closer look

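The same genes differed in opposite directions between populations. The log2 ratio of RTT over NTT for H2-Ab1 was 1.717 in TAM_Spp1 and -1.492 in Infl_Mono, for H2-Aa 1.577 and -1.489, and for H2-Eb1 1.753 and -1.554. For H2-DMb1 it was 2.07 in NK_cells and -1.227 in Infl_Mono, where 1 RTT cell of NK_cells held 18 of the 21 UMIs. With 1 library of each line, these differences between populations were not tested.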

How the results depend on the processing

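For all cells together, the members had a median log2 ratio of -0.73 with 4 past 2-fold lower. With each cell weighed equally the median was -0.42 and 1 was lower, and after thinning to 2000 UMIs -0.42 and 1. In macrophages (median -0.99, 5 lower) these gave -0.68 with 3 lower and -0.69 with 2 lower, leaving out the 5% deepest cells gave -1.04, leaving out TAM_H2Ab1 gave -0.67 with 1 lower, and leaving out TAM_C1q and Ctsk_Macro gave -0.31 with 0 lower and 1 higher. In dendritic cells (0.67, 2 higher) TMM gave 0.61, leaving out DC3 gave 0.57 with 1 higher, and leaving out cells with Siglech or Ccr9, added after seeing the data, gave 0.62. DC3 (-0.36) was at -0.51 with TMM and -0.52 with DESeq2 size factors, which moved all its genes by -0.14 and -0.16. Without the 5% deepest cells Infl_Mono (-1.36) was at -0.89 and TAM_cycling (-0.82) at -0.89, and with cells weighed equally cDC2 (0.73) was at 0.78. Cells with an H2-Ab1 UMI were 80.7% in NTT and 55.7% in RTT at 2000 UMIs, 74.2% and 47.4% at 1000, and 89.4% and 77.8% without thinning. H2-DMb1 in NK_cells turned from 2.07 to -0.44 without the richest cell of each library, also added later. Of 931 alternatives for the 120 member ratios, 37 changed the sign, 4 of them where the first value was beyond 2-fold. The causes were not tested unless the alternative itself shows them. Ratios resting on few UMIs (H2-Oa and H2-Ob outside dendritic cells) are limited by depth. No paired analysis was possible because each line had 1 library.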
